A study of Mus musculus with 6 samples.

Results

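The fibulins, fibrillin-1 and the latent TGF-β binding proteins (Ltbp) were examined as 10 genes of the extracellular matrix in mouse mammary cells that had acquired resistance to an EGFR inhibitor. The genes were chosen as a family, with earlier results of these data known, and not by a threshold on these arrays. They are the fibulin genes Fbln1, Fbln2, Fbln5, Efemp1 (fibulin-3) and Efemp2 (fibulin-4), the Ltbp genes Ltbp1, Ltbp2, Ltbp3 and Ltbp4, and Fbn1. Of the 10, 8 had a probe set of their own, out of 19938 genes tested. No probe set was named for Efemp2 or Fbn1, and these genes were not analysed here. Each of the 8 was read by a single probe set, so transcript forms of a gene could not be separated.

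RNA was measured on Affymetrix arrays (Mouse Gene 1.0 ST), 3 for the parental NME cells and 3 for the AGR cells, in a study that sought mediators of resistance to ErbB kinase inhibitors. NME cells are NMuMG cells, a normal mouse mammary gland line, transformed by stable viral transduction of EGFR under puromycin selection. AGR cells descend from them, carry the same transgene and were grown in the same serum and insulin medium. AGR cells are a single colony, picked from 3D culture on a basement membrane matrix (cultrex) in which NME cells were exposed to 1 µM AG1478, an EGFR kinase inhibitor. The colony was expanded in 2D culture before extraction. The study's methods state that resistant lines, once established, were kept without drug. Whether the arrays of a line came from separate cultures is not given in the sources used here. The p-values therefore measure only the spread between these arrays, which may be technical, and nothing about other resistant colonies. In bulk RNA, more cells expressing a gene and more transcript per cell cannot be told apart.

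Fibulins are secreted glycoproteins built mainly from tandem calcium-binding EGF-like modules that end in a shared fibulin module. Fibulin-1 and fibulin-2 are found in basement membranes and in fibronectin-rich matrix, and fibulin-4 and fibulin-5 are needed for elastic fibre assembly. Fibrillin-1 forms the microfibrils on which elastin is laid down. The Ltbp proteins are relatives of fibrillin, and all but Ltbp2 can bind the latency-associated peptide of TGF-β, so that the growth factor is secreted as an inactive complex and stored in the matrix until it is released.

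Log2 of the deposited intensity was compared with limma, and p-values were adjusted over all 19938 genes. Fbln2, Ltbp1 and Ltbp4 were higher in AGR cells and Efemp1 was lower at an adjusted p under 0.05. This is 3 higher and 1 lower of 8 measured genes, against 12.6% and 11.6% of all genes tested. The family was chosen with earlier results known, so its counts beside all genes are a description. With a fold change above 2 also required, Fbln2 and Ltbp1 were called higher and no gene of the family lower, against 1.50% and 1.50% of all genes. The arrays of the 2 lines did not overlap for 4 genes with higher values in AGR cells (Fbln2, Ltbp1, Ltbp4 and Ltbp3) and for 1 gene with lower values (Efemp1). This was the case for 17.9% of all genes in the higher and 18.5% in the lower direction. The median log2 fold change over the 8 genes was 0.05, and over all genes it was -0.02.

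**Figure D1:**
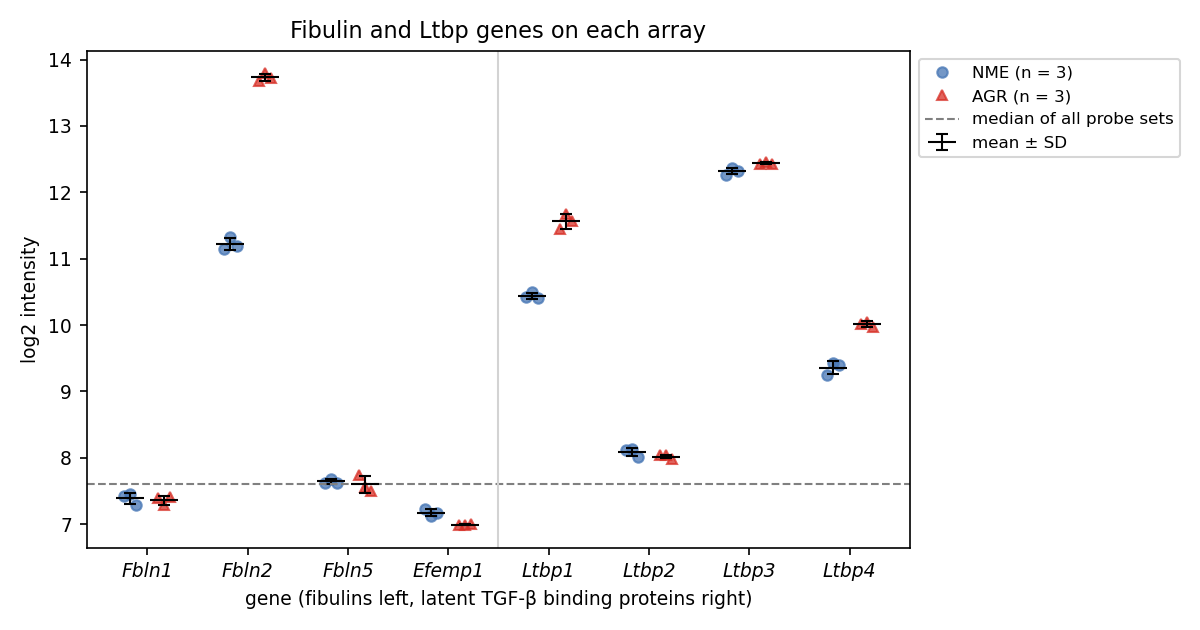
Log2 intensity (y axis) of the 8 measured genes on each NME array (blue circles) and AGR array (red triangles), with the mean and SD of 3 arrays in black and the median of all probe sets, 7.60, as a dashed line. The AGR arrays lay above the NME arrays for Fbln2, Ltbp1 and Ltbp4, while the values of Fbln1, Fbln5 and Ltbp2 overlapped near the dashed line.

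Sequences before the transcription start sites of Ltbp1 and Ltbp4 are shown first. Both genes have several start sites, and the single probe set of each does not separate their transcript forms. They come from RefSeq (build GRCm38.p6) and are written 5′ to 3′ on the strand of the gene. Ltbp1 lies on chromosome 17 (plus strand) with 2 start sites in the promoter table, 173252 bases apart. The upstream start is known to give the long form of Ltbp1 and the internal start the short form. The stretch shown for the upstream start, chr17:75005279-75005479, ends where the annotated gene begins, and that for the internal start is chr17:75178531-75178780. Ltbp4 lies on chromosome 7 (minus strand) with 3 start sites in the table within 3964 bases, and the stretch before the most upstream of these 3 is chr7:27337613-27337862. The stretches for the internal start of Ltbp1 and for Ltbp4 lie inside the annotated span of their genes, and for Ltbp4 this span reaches further upstream, to position 27339720. For Fbln2, on chromosome 6 (plus strand), the annotated gene begins at position 91212460, before the 1 start site in the table at 91212764, and no sequence is shown. Capitals mark the letters CAGACA, which hold a core bound by SMAD proteins, and CAGGTG, the E-box bound by ZEB and SNAI factors, on either strand.
Ltbp1, upstream start: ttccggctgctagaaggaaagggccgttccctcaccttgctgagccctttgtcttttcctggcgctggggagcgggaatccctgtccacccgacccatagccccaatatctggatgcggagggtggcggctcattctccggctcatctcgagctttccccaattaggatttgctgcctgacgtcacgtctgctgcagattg
Ltbp1, internal start: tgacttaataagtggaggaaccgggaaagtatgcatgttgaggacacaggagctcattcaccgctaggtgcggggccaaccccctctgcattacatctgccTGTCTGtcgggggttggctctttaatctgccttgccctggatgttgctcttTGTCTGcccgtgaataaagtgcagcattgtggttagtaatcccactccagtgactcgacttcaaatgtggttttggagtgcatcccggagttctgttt
Ltbp4, most upstream start of the table: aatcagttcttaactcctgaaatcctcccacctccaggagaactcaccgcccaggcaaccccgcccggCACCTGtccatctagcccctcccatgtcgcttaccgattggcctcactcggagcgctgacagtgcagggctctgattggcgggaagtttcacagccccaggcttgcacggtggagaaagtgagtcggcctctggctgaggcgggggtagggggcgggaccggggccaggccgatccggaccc

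Over the whole windows of 300 bases, of which 50 lie after the start, 5 motifs were searched on both strands. The window of Fbln2 and the upstream window of Ltbp1 held none of them, and the internal window of Ltbp1 held CAGACA at 2 places. CAGACA was found in 5 of 17 windows, which belong to 4 of the 10 genes: Fbln1, Fbln5, Ltbp1 and Ltbp3. It was found in 21% of all 32851 promoter windows of the table. CAGGTG was found in 3 of 17 windows (Ltbp2 and Ltbp4) against 20.2% of all windows. The AP-1 letters TGANTCA were found in 2 of 17 windows (Efemp1 and Ltbp3), in the latter overlapping CAGACA, against 7.81%. The TEAD letters GGAATG (14.7% of all windows) and TATAAA (13.6%) were found in none of the 17. Windows of a gene with close start sites share bases, and matches are descriptions of letters and not of bound sites.

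Fbln2 encodes fibulin-2, a large fibulin that binds fibronectin, nidogen and perlecan in basement membranes. Its log2 intensity was 11.15, 11.32 and 11.20 on the NME arrays and 13.68, 13.79 and 13.72 on the AGR arrays. The lowest AGR value lay 2.36 above the highest NME value on the log2 scale. The mean went from 11.22 ± 0.09 (SD, n = 3) to 13.73 ± 0.06 (SD, n = 3), a 5.68-fold increase with a 95% interval of 5.15 to 6.27 (adjusted p = 1.7e-06 from limma). By size of increase Fbln2 was at rank 24 of 19938 genes. The promoter window at its start site held none of the letters searched.

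The other measured fibulins are Fbln1, which encodes a basement membrane fibulin, Fbln5, which encodes an elastogenic fibulin that binds integrins, and Efemp1, which encodes fibulin-3. Fbln1 was at 7.42, 7.45 and 7.29 in NME cells and at 7.39, 7.29 and 7.41 in AGR cells. Fbln5 was at 7.63, 7.68 and 7.63 in NME cells and at 7.75, 7.56 and 7.50 in AGR cells. The groups overlapped for both genes. The log2 fold change was -0.03 for Fbln1 (95% interval -0.17 to 0.12, adjusted p = 0.82 from limma) and -0.04 for Fbln5 (95% interval -0.21 to 0.12, adjusted p = 0.743 from limma). Intensities of this size are close to or under the median over all probe sets, 7.60. No detection calls were used, so the intervals bound the intensity and not the transcript.

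Efemp1 was at 7.23, 7.13 and 7.16 in NME cells and at 6.99, 6.99 and 7.00 in AGR cells. Every AGR value was lower, with 0.13 between the groups on the log2 scale. The log2 fold change was -0.18 (95% interval -0.29 to -0.08, adjusted p = 0.0249 from limma), a 1.13-fold decrease. Both lines were under the median intensity. The call was lost with quantile normalization (log2 fold change -0.15, adjusted p = 0.0831 from limma), with each array centred on its median (-0.16, adjusted p = 0.101 from limma) and when NME replicate 1 or 3 or AGR replicate 1 or 3 was left out (log2 fold changes of -0.15, -0.19, -0.18 and -0.19).

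**Figure D2:**
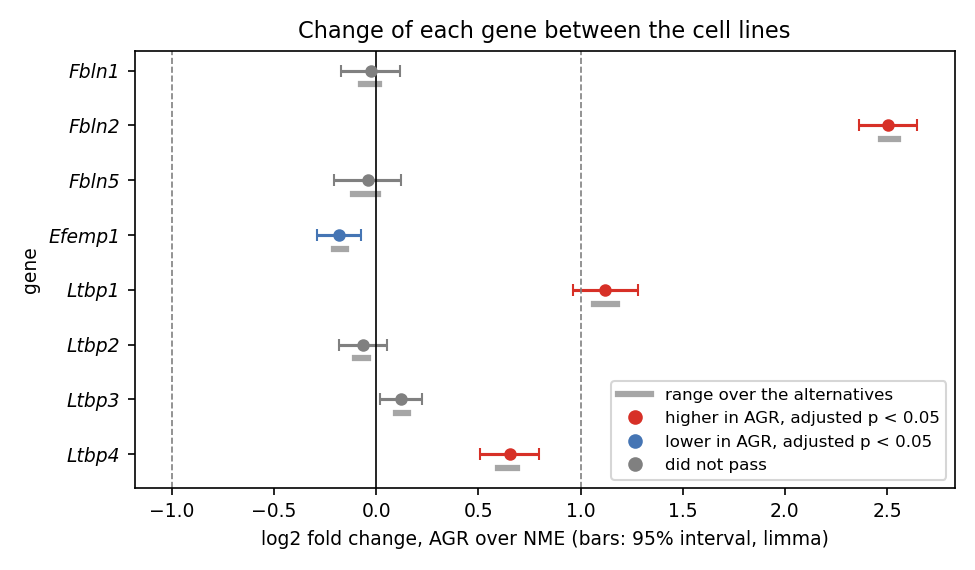
Log2 fold change of AGR over NME cells (x axis) of the 8 genes, with 95% intervals from limma, the range over the alternative analyses as a gray bar under each, and a fold change of 2 as dashed lines. Fbln2 at 2.51 and Ltbp1 at 1.12 lay beyond the dashed line, Ltbp4 lay at 0.65, and the intervals of Fbln1, Fbln5 and Ltbp2 included 0.

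Ltbp1 binds latent TGF-β and anchors it to fibronectin and to fibrillin microfibrils. Its log2 intensity was 10.43, 10.49 and 10.40 on the NME arrays and 11.44, 11.67 and 11.57 on the AGR arrays. All AGR arrays were above all NME arrays, with a gap of 0.95 on the log2 scale. The increase was 2.17-fold (95% interval 1.95 to 2.43, adjusted p = 6.5e-05 from limma), from 10.44 ± 0.05 (SD, n = 3) to 11.56 ± 0.11 (SD, n = 3), and it was at rank 237 among all genes by size. The interval reached below a fold change of 2. Which of the 2 start sites described above gave the added transcript could not be read from a single probe set. The study lists Ltbp1 among genes it chose from these same arrays, so its change here is not independent evidence.

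Ltbp4, whose product binds latent TGF-β1 and also assists fibulin-5 in elastic fibre assembly, was at 9.25, 9.43 and 9.40 in NME cells and at 10.02, 10.05 and 9.97 in AGR cells. The groups were separated by 0.53 on the log2 scale. The mean went from 9.36 ± 0.10 (SD, n = 3) to 10.01 ± 0.04 (SD, n = 3), a 1.57-fold increase (95% interval 1.42 to 1.74, adjusted p = 4.4e-04 from limma), so the interval lay below a fold change of 2.

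Ltbp3, which carries latent TGF-β and is known for its role in bone and teeth, was bright in both lines. It was at 12.27, 12.36 and 12.32 in NME cells and at 12.43, 12.45 and 12.43 in AGR cells. The AGR values were all higher, by a gap of 0.07 on the log2 scale, but the gene did not pass the test (log2 fold change 0.12, 95% interval 0.02 to 0.22, adjusted p = 0.0971 from limma). With quantile normalization it passed, with a log2 fold change of 0.16 (adjusted p = 0.044 from limma). The upper end of the interval in the main fit was a 1.17-fold increase in intensity.

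Ltbp2, the relative that does not bind latent TGF-β and associates with fibrillin microfibrils, was at 8.11, 8.14 and 8.01 in NME cells and at 8.04, 8.04 and 7.99 in AGR cells. The groups overlapped, and the log2 fold change was -0.07 (95% interval -0.18 to 0.05, adjusted p = 0.42 from limma). The calls of Fbln2, Ltbp1 and Ltbp4 held in all 14 alternative fits. Their log2 fold changes ranged from 2.47 to 2.56 for Fbln2, from 1.07 to 1.18 for Ltbp1 and from 0.60 to 0.69 for Ltbp4. Differences between the changes of family members were not tested.

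**Figure D3:**
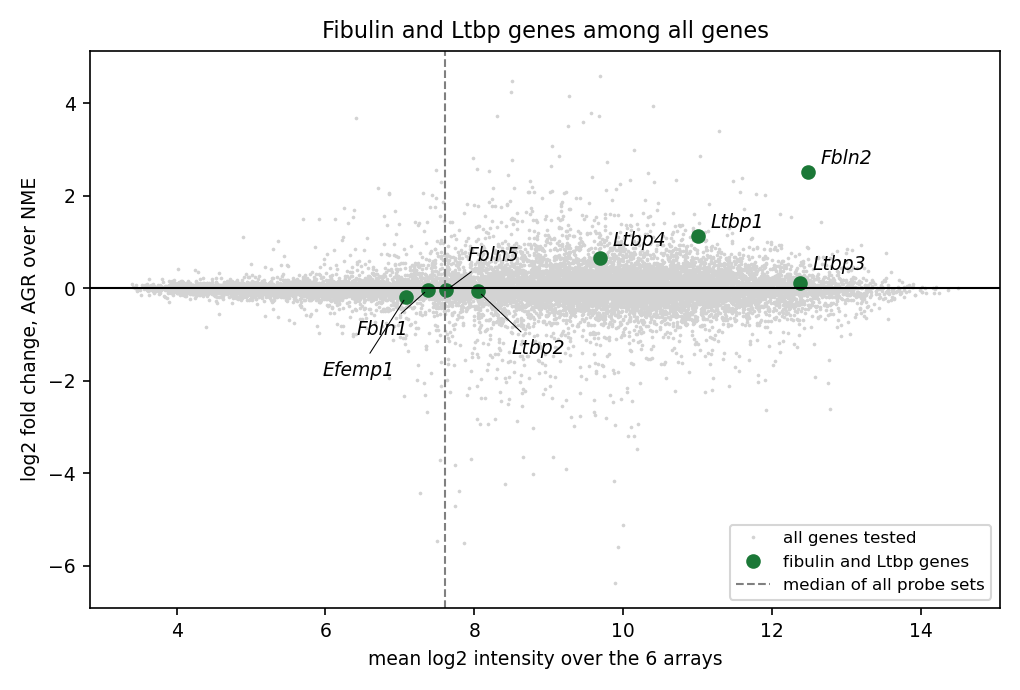
Mean log2 intensity over the 6 arrays (x axis) against the log2 fold change of AGR over NME cells (y axis) for 19938 genes in gray and the 8 genes in green, with the median of all probe sets as a dashed line. Fbln2 lay at 2.51, and Fbln1 and Efemp1 lay left of the dashed line.

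The genes whose values over the 6 arrays were most like those of Fbln2 and Ltbp1 were found by the root mean square distance between log2 values, each taken from the gene's own NME mean. For Fbln2 they were Hs6st2, a heparan sulfate 6-O-sulfotransferase, at a distance of 0.09, P3h2, a collagen prolyl 3-hydroxylase, also at 0.09, and the protocadherin gene Pcdh7 at 0.10. Their log2 fold changes were 2.58, 2.50 and 2.41. For Ltbp1 they were the docking protein gene Gab2 and the orphan nuclear receptor gene Nr4a2, both at 0.04, and Ccdc88a, which encodes the actin-binding protein girdin, at 0.05. Their log2 fold changes were 1.14, 1.15 and 1.14. With 6 arrays in 2 groups this distance reads mostly the size of the change and is a description of these arrays.

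The partners with which these proteins work were then read from 7 lists of 78 genes, 76 of which were measured. By limma's adjusted p, 23 of these rose and 6 fell, and with a fold change above 2 as well 7 rose and 2 fell. Over all genes the shares were 12.6% and 11.6% at the adjusted p and 1.50% in either direction with the fold change. The lists, like the family, were chosen with earlier results of these data known, so their counts are a description. The median log2 fold change of the 76 was 0.03. The other family genes Fbln7, Hmcn1, Hmcn2 and Fbn2 did not pass the test, with log2 fold changes between -0.13 and 0.05.

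Of 29 measured elastic fibre and microfibril genes, 6 were higher and 1 was lower, against 12.6% and 11.6% of all genes. Their median log2 fold change was 0.03. Eln, which encodes elastin, did not pass (adjusted p = 0.735 from limma), with means of 8.04 ± 0.03 (SD, n = 3) for NME and 8.01 ± 0.02 (SD, n = 3) for AGR arrays. Adamts6, a metalloprotease known to act on microfibril proteins, was at 7.74, 7.63 and 7.65 in NME cells and at 9.64, 10.17 and 9.77 in AGR cells, a 4.55-fold increase (adjusted p = 6.7e-05 from limma). Thsd4, which encodes the ADAMTS-like protein ADAMTSL6 that promotes fibrillin-1 microfibril assembly, was at 8.10, 8.18 and 8.03 in NME cells and fell to 7.20, 7.41 and 7.31, a log2 fold change of -0.80 (adjusted p = 3.1e-04 from limma). Its AGR mean was under the median intensity. Among binding partners of fibulin-2, Fn1 (fibronectin) was at 11.92, 12.03 and 11.89 in NME cells and at 13.31, 13.47 and 13.37 in AGR cells, a log2 fold change of 1.44 (adjusted p = 1.5e-05 from limma). Hspg2 (perlecan) was higher with 0.40 (adjusted p = 0.0088 from limma), a call lost with the methods' t-test. The nidogen genes were on none of the lists and were not read. Vcan (versican), on the elastic fibre list, did not pass (0.16, adjusted p = 0.307 from limma). The crosslinking enzyme genes Loxl1 and Loxl4 were higher with 0.31 and 0.29. The NME mean of Loxl1 was under the median intensity. The call of Loxl4 was lost with the mean of its probe sets (0.18, adjusted p = 0.101 from limma). The last of the 6, Adamtsl4, had a log2 fold change of 0.22 and an adjusted p of 0.0489 from limma, a call lost whichever array was left out (0.17 to 0.26). Loxl4 and Adamtsl4 were chosen after seeing their values. Lox, at 6.15 in NME and 6.17 in AGR cells, did not pass.

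Tgfb2 was the gene of the 3 ligands that passed the test. It was at 8.12, 7.90 and 8.11 in NME cells and at 9.51, 9.49 and 9.59 in AGR cells, a 2.80-fold increase (adjusted p = 2.4e-05 from limma). Tgfb1 was at 11.14 ± 0.12 (SD, n = 3) and 10.97 ± 0.07 (SD, n = 3), and Tgfb3 at 7.32 ± 0.01 (SD, n = 3) and 7.26 ± 0.14 (SD, n = 3), in NME and AGR cells. Neither passed (log2 fold changes of -0.17 and -0.06). Of the carriers of latent TGF-β outside the Ltbp family, Lrrc32, which encodes the cell surface protein GARP, was at 7.55, 7.52 and 7.36 in NME cells and at 9.18, 9.08 and 9.45 in AGR cells. The increase was 3.38-fold (adjusted p = 6.7e-05 from limma), from an NME mean under the median intensity. Nrros, the other carrier, had a log2 fold change of -0.01.

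Of 20 genes that act on latent TGF-β, 7 were higher and 3 were lower, against 12.6% and 11.6% of all genes. Thbs1 (thrombospondin-1, an activator) was at 9.65, 9.43 and 9.69 in NME cells and at 13.04, 12.88 and 13.04 in AGR cells, a log2 fold change of 3.40 (adjusted p = 1.8e-06 from limma). Plau (urokinase) rose from 7.35 ± 0.08 (SD, n = 3) to 9.12 ± 0.37 (SD, n = 3), with an adjusted p of 5.5e-04 from limma. Its NME mean was under the median intensity. The integrin subunit genes Itgb6 and Itgb1 had log2 fold changes of 0.78 and 0.77, while Itgb5 fell with -0.43 and Itgav, their shared αV partner, had -0.08 and did not pass. Mmp2, a gelatinase, and Bmp1, a protease known to cleave Ltbp1, were chosen after seeing their values and were higher with 0.52 and 0.50. Pcsk6, a proprotein convertase, was at 11.90, 12.13 and 11.91 in NME cells and at 10.23, 10.62 and 10.19 in AGR cells, a log2 fold change of -1.63 (adjusted p = 2.0e-04 from limma). Furin, the convertase that cleaves the TGF-β propeptide and also named after its values were seen, had 0.16 and an adjusted p of 0.0289 from limma. Its call was lost when any single array but AGR replicate 2 was left out (0.15 to 0.18). Tgm2, the transglutaminase that crosslinks Ltbp1 into the matrix, fell with -0.50.

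Of 9 receptor and SMAD genes, 5 were higher and 1 was lower, against 12.6% and 11.6% of all genes. Smad7, the inhibitory SMAD induced by TGF-β, had a log2 fold change of 0.85, Smad3 of 0.48, Smad2 of 0.38 and Smad4 of 0.36. Tgfbr2 had 0.51, and its call was lost with the methods' t-test and without AGR replicate 3 (log2 fold change 0.48). Tgfbr1, which encodes the type I receptor, was at 11.80, 11.70 and 11.79 in NME cells and at 10.64, 10.56 and 10.81 in AGR cells, a log2 fold change of -1.09 (adjusted p = 1.0e-04 from limma). Of 9 measured TGF-β response genes, Ldlrad4 (1.32), Ccn2 (0.93) and Pmepa1 (0.50) were higher, Id1 (-0.71) was lower, and 5 did not pass. The same shares over all genes apply here.

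**Figure D4:**
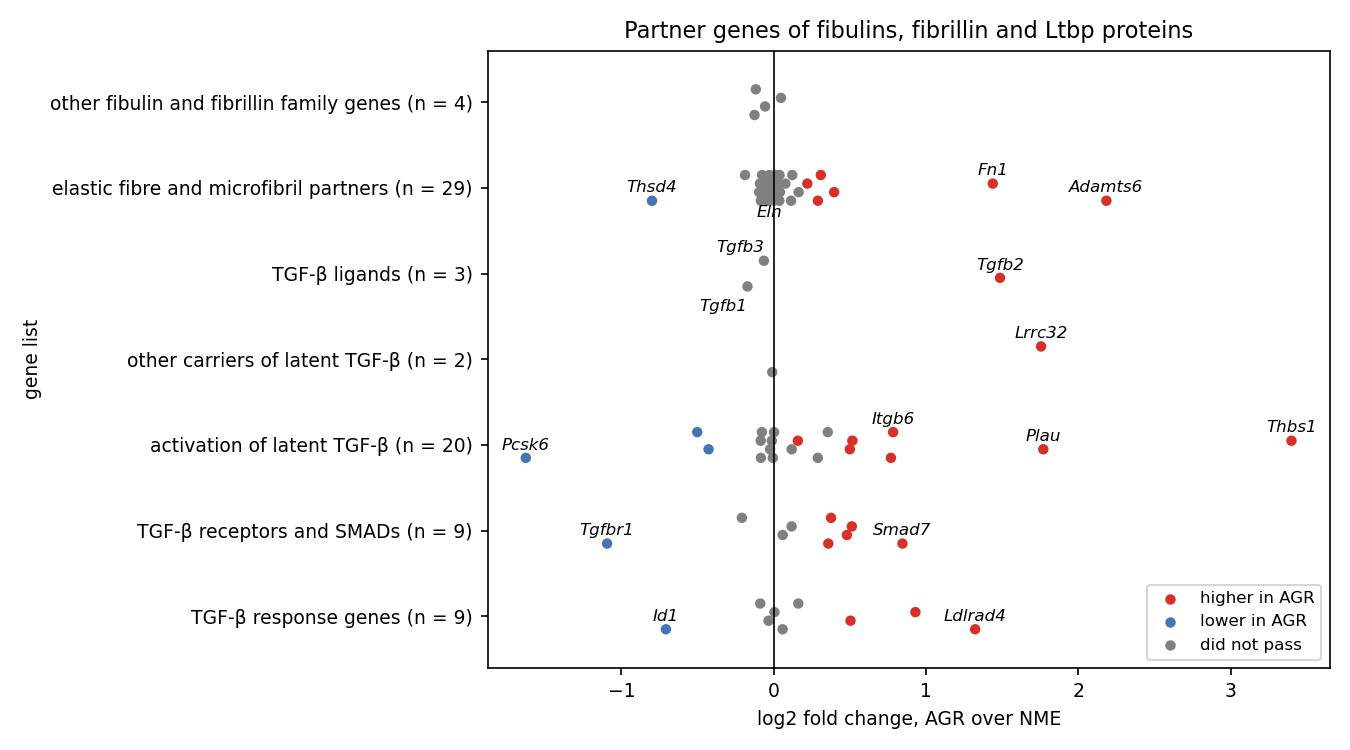
Log2 fold change of AGR over NME cells (x axis) of the 76 measured partner genes, 1 point a gene, by list. Red marks genes called higher, blue genes called lower and gray genes that did not pass limma's adjusted p of 0.05. Elastic fibre genes lay within 0.40 of 0 apart from Adamts6 (2.19), Fn1 (1.44) and Thsd4 (-0.80).

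The arrays were checked for the labelled cell type and for other cells that produce these proteins. Krt8 and Krt18 of luminal mammary epithelium had means of 13.58 or above in both lines. Neither passed the test (-0.10 and -0.05), although the AGR values of each were all below its NME values. Krt7 did not pass either (-0.08), and its values overlapped. Cdh1 was lower in AGR cells (13.54 against 12.93), as was Krt19 (13.44 against 12.40), and Epcam, at 6.58 and 6.51, was under the median intensity. Of 9 fibroblast markers, 1 was higher in AGR cells (Pdgfra, log2 fold change 0.39, with an NME mean under the median intensity) and none was lower. Their summed intensity was between 1788 and 1970 on the NME arrays and between 1825 and 1949 on the AGR arrays, and the means of Lum, Postn and Dcn, the last also on the elastic fibre list, were 6.63 or less in both lines. The collagen genes of the list were above the median intensity and overlapped between the lines, with NME and AGR means of 8.86 and 8.87 for Col1a1, 8.42 and 8.35 for Col1a2 and 8.56 and 8.55 for Col3a1. Of 6 macrophage and other immune markers, 2 were higher (Cd68 with 0.96 and Csf1r with 0.28), with sums between 892 and 942 in NME and between 1190 and 1250 in AGR cells. The NME mean of Csf1r was under the median intensity. Lyz2, at 6.48 and 6.79, did not pass (0.31, adjusted p = 0.0918 from limma), although its AGR values were all above its NME values. Adgre1 was at 5.95 and 5.99 and Ptprc at 7.08 and 7.14, and the part of such cells in the changes was not tested. Of 5 endothelial markers none passed, of 5 adipocyte markers Cidec was lower (-1.28), and of 6 basal markers Acta2 was higher (0.44). Krt14 of the basal list did not pass (-0.25, adjusted p = 0.058 from limma), although its AGR values were all below its NME values. Its means were under the median intensity in both lines.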

How the data were processed

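Total RNA of 3 NME and 3 AGR samples was measured on 1-colour arrays, grouped by the labels (the design text speaks of 3 groups, the labels give 2). The authors deposited an intensity on a linear scale for 35557 probe sets on each array. MAS5, with no version, is named in the submitters' processing notes. As this array type has no mismatch probes, which MAS5 uses, the background correction and normalization behind the values are unknown. Array medians lay between 190 and 201, and for each pair of arrays between 1132 and 1978 probe sets had equal values. No detection calls were used.

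Log2 was taken with no offset. Of the probe sets, 21789 carried 1 gene symbol, and the brightest of each gene was kept (19938 genes). Correlations of log2 intensity over all probe sets were 0.995 to 0.997 between arrays of a line and 0.986 to 0.988 between lines. Lines were compared with limma 3.58.1 (lmFit, eBayes; R 4.3.3) with Benjamini-Hochberg adjustment over all genes, and called at an adjusted p under 0.05. The limma fit alone was tested on simulated data, with independent normal values and added changes of known size.

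The family members, the partner lists and the markers were chosen with earlier results of these data known. Named by rule were all members, Eln and the TGF-β ligands, and up to 4 called genes in each direction of a partner list (all where 5 or fewer went 1 way). The 3 genes most like each member with a fold change above 2 were also named by rule. Outside the rule were the called genes marked above as chosen after seeing their values. Partner genes that did not pass, such as Vcan, Lox, Itgav and Nrros, were outside it too. The alternatives were quantile normalization, median centring, leaving out genes whose mean was under the median intensity, averaging a gene's probe sets in place of the brightest, an offset of 16, eBayes with trend and robust settings, the methods' t-test, the replicate number as a block, each array left out in turn and a fold change above 2, which the study's own rule for these arrays also required. Protein sequences were not analysed here.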

Additional observations from a re-analysis of the deposited data

How the results depend on the processing

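The number of arrays limits the precision, with standard errors of 0.04 to 0.07 for the 8 genes, and Fbln1 and Efemp1 were under the median intensity in both lines. Over the alternatives, 102 of 110 log2 fold changes of the 8 genes stayed on their side of the threshold. For Efemp1 the call was lost with quantile normalization (-0.15), with median centring (-0.16) and with the replicate block (-0.18), and leaving out arrays gave -0.20 to -0.15. Ltbp3 passed with quantile normalization (0.16). The count of lower genes in the family, 1, was therefore 0 with quantile normalization, centring, the filter on dim genes (which removed Efemp1 and Fbln1 before the fit), the replicate block and the fold threshold, and between 0 and 1 with an array left out. With the fold threshold, 7 partner genes were higher and 2 lower, against 23 and 6. Of 29 partner genes called, 24 kept their call in every fit that held them. The exceptions were Adamtsl4, Furin, Hspg2, Loxl4 and Tgfbr2, of which Adamtsl4, Hspg2 and Tgfbr2 did not pass the methods' t-test and Loxl4 did not pass with the mean of its probe sets (0.18).

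Deviations of arrays with the same number correlated at -0.13, 0.33 and 0.26 over genes. The labels do not say whether arrays with the same number belong together. The main fit therefore left the numbers out, and the block was run as an alternative. The methods' t-test, taken from a general statement on statistics that is not tied to these arrays, called 2952 genes higher and 2893 lower at an unadjusted p under 0.05 and 1687 and 1588 after Benjamini-Hochberg adjustment, where the calls of the 8 genes were 4 and 1 and then 3 and 1. With the number as a block, 2728 genes were higher and 2312 lower, against 2515 and 2304, and of the 8 genes the block changed the call of Efemp1 alone, and of the partner genes that of Furin alone (0.16, adjusted p = 0.075 from limma). With median centring, 58.3% of called genes were higher, against 52.2%.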

Other observations

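Replicate 2 had the highest value of its line in both NME and AGR cells for Fbln2, Ltbp1, Ltbp3 and Ltbp4, which is 4 of the 8 measured genes, and replicates 1 and 3 were the highest in both lines for 0 of the 8. Replicate 2 was highest in both lines for 13.9% of all genes, against 8.3% for replicate 1 and 9.45% for replicate 3.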
